A study of Mus musculus with 42 samples.

Results

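Long noncoding RNAs of the mouse autosomes, 10 in all, were followed in bone-marrow-derived macrophages (BMDM): Malat1, Neat1, Gas5, Meg3, Snhg1, Snhg5, Snhg12, Snhg15, Mir22hg and Mir155hg, chosen by name. Of these 10 genes, 7 had a row among the 37310 genes of the count table, and 6 (Malat1, Neat1, Gas5, Snhg12, Snhg15 and Mir22hg) had enough counts to be tested among 11624 genes. Snhg1, Snhg5 and Mir155hg were not analysed here, and Meg3 was too rare to be tested. The study asked how the loss of the transcription factor IRF5 changes macrophages that meet a fatty acid or a bacterial product. BMDM from male C57BL/6 mice aged 7 to 10 weeks were grown for 8 to 10 days in medium conditioned by L929 cells and were kept as Control and sampled at 0, 2 and 24 h, or were sampled 2 and 24 h after palmitate or after LPS at 10 ng/ml. Each of these 7 conditions was sequenced in 3 libraries from cells labelled WT and 3 from cells labelled KO, which makes 14 groups and 42 libraries of total RNA depleted of ribosomal RNA. The KO mice carry Irf5 flox/flox alleles and LysM-Cre, a Cre inserted into Lyz2 that acts in myeloid cells, so deletion depends on how many cells have expressed Cre.

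Irf5 itself ran from 210 to 389 CPM (counts scaled to a common library size) in the 21 libraries labelled WT and from 267 to 430 CPM in the 21 labelled KO. The count of the targeted gene was not lower under the KO label, and it was called higher in 4 of the 7 conditions, Control 0 h (log2 fold change 0.47, adjusted p = 9.12e-08), Control 2 h (0.26, 0.0193), palmitate 24 h (0.31, 0.00272) and LPS 24 h (0.47, 1.55e-07). Counts summed over a whole gene cannot show whether they come from outside the deleted exons. Since the gene goes against the label, each comparison below is one of libraries labelled KO with libraries labelled WT. Lyz2, the gene that carries Cre, ran from 8030 to 14600 CPM under the WT label and from 4680 to 8770 CPM under the KO label. Libraries held 2848793 to 7743442 counts (median 5625399), so 3 counts stood for 0.387 to 1.05 CPM. The summed level of 8 macrophage markers (Adgre1, Csf1r, Cd68, Itgam, Mertk, Fcgr1, Lyz2 and Cd14) was 10100 to 22900 CPM in every library, whereas 5 T or NK cell markers summed to at most 2.34 CPM and 5 erythroid markers, of which Hbb-bs was at 0 throughout, to at most 0.516 CPM. Granulocyte precursor markers (10 genes) summed to 20.8 to 439 CPM, fibroblast markers (8) to 0.572 to 330 CPM, megakaryocyte markers (5) to 42.1 to 123 CPM, endothelial markers (5) to 6 to 31.6 CPM and B cell markers (5) to 3.64 to 14 CPM. In bulk RNA, fewer cells of a type and less RNA per cell cannot be told apart.

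Long noncoding RNAs act as RNA rather than through a protein, and these members work in different places. Malat1 collects in nuclear speckles, the bodies in which splicing factors are stored. Neat1 is the scaffold on which paraspeckles, nuclear bodies that hold RNA and RNA-binding proteins, are built. Gas5, Snhg12 and Snhg15 are host genes whose introns give small nucleolar RNAs (snoRNAs), the guides of ribosomal RNA modification, and Gas5 is known for a 5′ terminal oligopyrimidine tract, the start signal of growth-regulated messages, and for decay that follows its translation. Mir22hg is the transcript that carries the microRNA miR-22, and Meg3 is an imprinted RNA expressed from the maternal chromosome.

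The product of Mir22hg is shown first, because Mir22hg is the member with the most called differences. Mir22hg lies on chr11:75461539-75466676, plus strand (GRCm38, which is mm10; GENCODE), and the miR-22 hairpin lies inside one of its exons. The mature arms, from RefSeq on GRCm38.p6, lie at chr11:75463734-75463755 and chr11:75463772-75463793 on the plus strand, and the capitals mark the seed, bases 2 to 8, with which a microRNA pairs to its targets.
mmu-miR-22-5p: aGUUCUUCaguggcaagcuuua
mmu-miR-22-3p: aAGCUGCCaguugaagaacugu
Each seed was held by 1 of the 1738 mature mouse microRNA entries, so no other entry shares it. The hairpin row had 0 counts in all 42 libraries, so values below are those of the host RNA and say nothing of the level of mature miR-22.

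Start sites bear on the snoRNA hosts, since an oligopyrimidine tract sits at the first bases of the RNA. The windows below, again from RefSeq on GRCm38.p6, run from 15 bases before the annotated start to 30 bases from it, and capitals mark a tract, here a C followed by at least 4 bases that are each C or T, read on the strand of the transcript and beginning within 2 bases of the start.
Gas5, second annotated start, chr1:161035151-161035195, plus strand: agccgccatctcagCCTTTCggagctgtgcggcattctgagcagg
Snhg12, chr4:132308663-132308707, plus strand: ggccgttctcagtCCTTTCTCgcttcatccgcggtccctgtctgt
Snhg15, chr11:6528731-6528775, minus strand: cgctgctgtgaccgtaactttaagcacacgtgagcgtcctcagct
Mir22hg, chr11:75461524-75461568, plus strand: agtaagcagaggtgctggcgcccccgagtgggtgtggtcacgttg
Malat1, chr19:5802643-5802687, minus strand: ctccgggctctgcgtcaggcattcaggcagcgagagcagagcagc
A tract of 6 bases was found at Gas5 and one of 8 bases at Snhg12, and none in the windows of Snhg15, Mir22hg and Malat1 or at the first annotated start of Gas5. Of 27025 genes with a listed start, 2863 (10.6%) held such a tract, and of 16 listed coding genes that are known for one, 6 (37.5%) did.

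The loci set limits on some of the counts. Malat1 (ENSMUSG00000092341, chr19:5795690-5802672) and Neat1 (ENSMUSG00000092274, chr19:5824708-5845478) are neighbours on the minus strand, 22035 bases apart, and do not overlap. Gas5 (ENSMUSG00000053332, chr1:161034422-161038539, plus strand) overlaps the coding gene Zbtb37 on the other strand, which had 5 to 57 counts per library. Mir22hg (ENSMUSG00000085148) overlaps the coding gene Tlcd2 on its own strand, which had 5 to 45 counts. No source says if reads were counted by strand, so the count of Gas5 is uncertain to that extent. Tlcd2 shares the strand of Mir22hg, so counting by strand would not tell their reads apart where they overlap. Values of both partners are given beside the results. Snhg12 (ENSMUSG00000086290) lies on chr4:132308623-132311024, plus strand, and Snhg15 (ENSMUSG00000085156) on chr11:6525591-6528760, minus strand. Of the snoRNAs annotated inside the hosts, the 9 with a row in Gas5 and the 1 in Snhg15 had no count in any library, and of the 4 with a row in Snhg12 only Snora16a had any.

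The label abundant fitted the members unevenly. By mean level Malat1 was the 12th of the tested genes and took 0.279% to 0.947% of all counts of a library. Neat1 ranked 1458, Gas5 4832, Mir22hg 6546, Snhg12 9708 and Snhg15 10284 of 11624. Per kilobase of exon, counting each base that any annotated transcript holds as exon, the mean level of Malat1 was 786 CPM per kb. Mir22hg followed at 8.74, Gas5 at 8.26 and Neat1 at 6 CPM per kb, while Snhg15 and Snhg12 stood at 1.71 and 1.51 CPM per kb. Malat1 was thus 89.9 times Mir22hg and 521 times Snhg12 on that scale. The bases so counted filled all 2402 of the Snhg12 locus and 3760 of the 4118 of the Gas5 locus. They take in introns of some transcripts, so levels of the spliced hosts may be understated and the ratios are rough. Meg3 (ENSMUSG00000021268, chr12:109541001-109571726) had 5 counts in all, 1 in each of 5 libraries, so it was near absence of signal at this depth in every group.

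**Figure D1:**
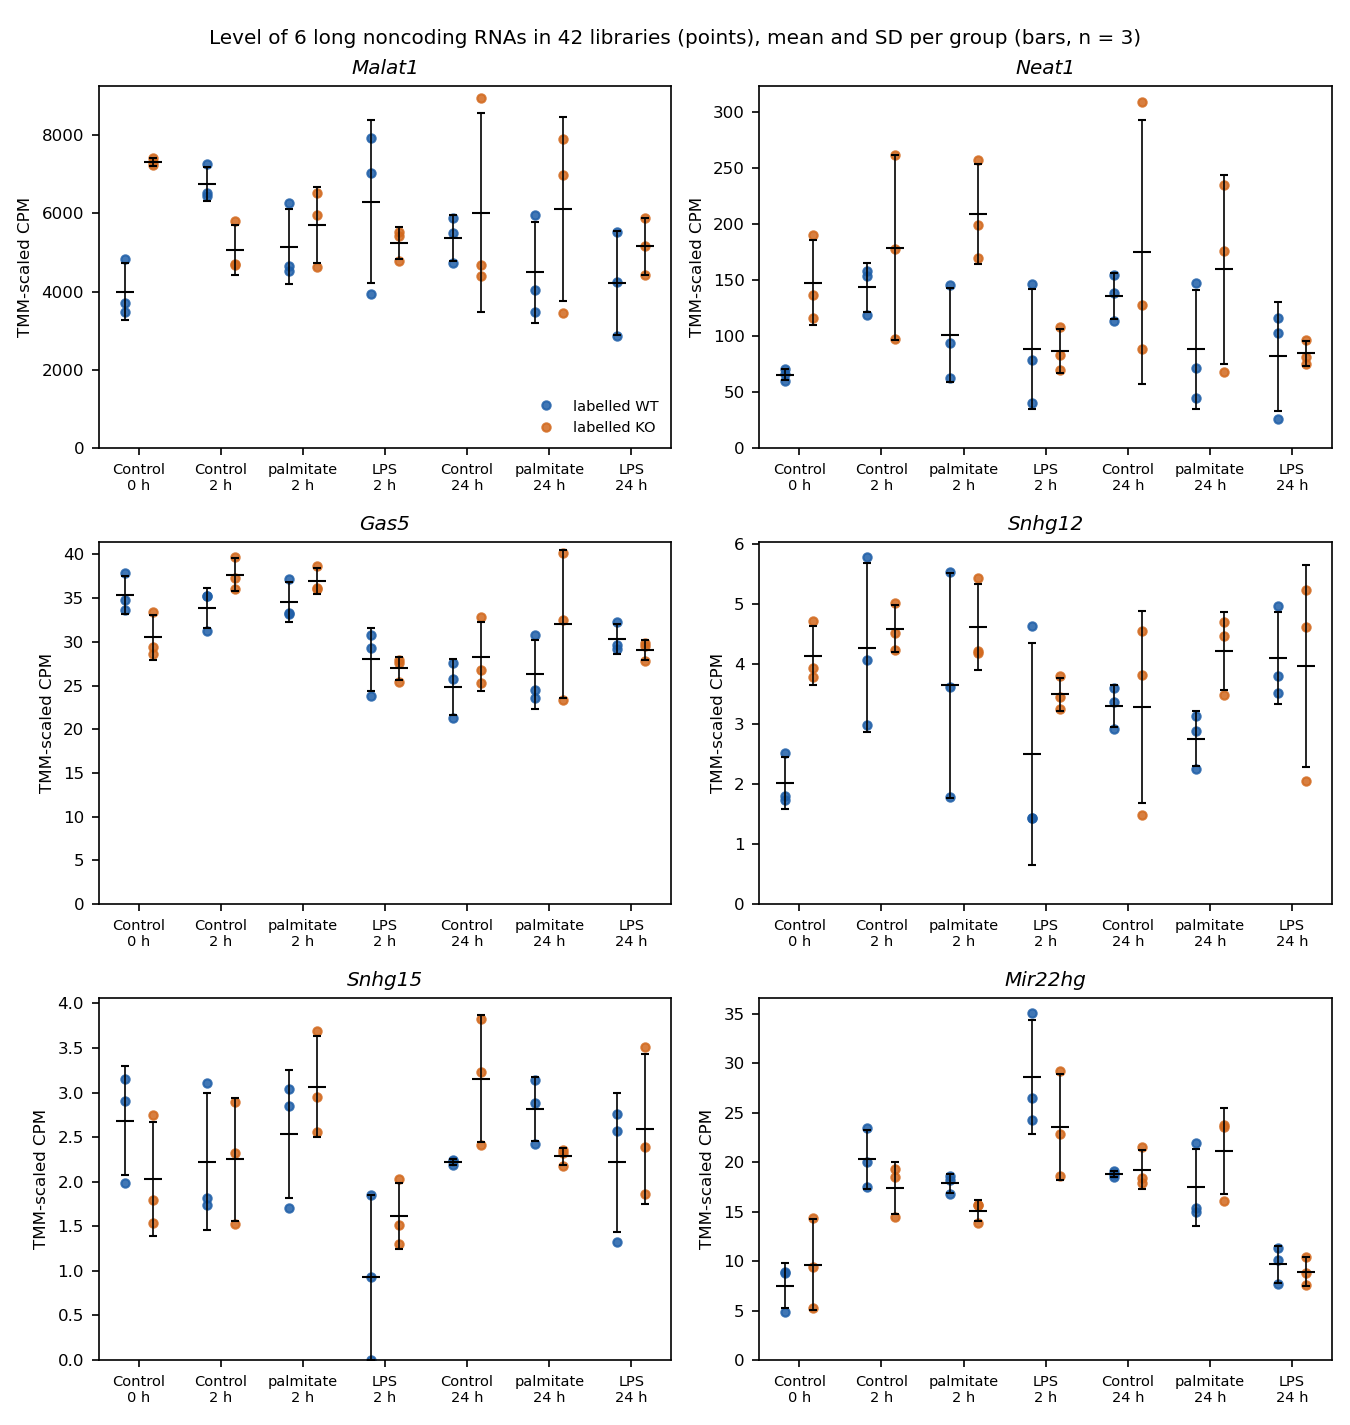
Level of each tested member in CPM (scaled by TMM) in the 14 groups, 1 panel per RNA; points are libraries (blue labelled WT, orange labelled KO) and bars give the mean ± SD of 3 libraries. WT Control 0 h is the lowest group for Malat1 (mean 4000 CPM), Neat1 (65.5 CPM), Mir22hg (7.53 CPM) and Snhg12 (2.02 CPM).

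Across the 42 libraries, Malat1 ran from 2867 to 8951 CPM with a median of 5457, and Neat1 from 26.15 to 308.8 CPM with a median of 115. Gas5 stayed between 21.3 and 40.2 CPM (median 30.8), the smallest ratio of highest to lowest of the 6. Mir22hg ran from 4.90 to 35.1 CPM (median 17.7), Snhg12 from 1.43 to 5.78 CPM (4 to 39 counts) and Snhg15 from 0 to 3.83 CPM (0 to 24 counts). Between the lowest and the highest group mean lay a factor of 3.8 for Mir22hg, 3.41 for Snhg15, 3.18 for Neat1, 2.29 for Snhg12, 1.83 for Malat1 and 1.52 for Gas5. The plot of levels shows that this order is not the order of reliability. The SD within groups was 0.66 on the log2 scale for Neat1, 0.48 for Snhg15, 0.45 for Snhg12, 0.35 for Malat1, 0.31 for Mir22hg and 0.16 for Gas5, with a median of 0.20 over all tested genes. Neat1 libraries of a single group, WT LPS 24 h, spanned 2.14 on the log2 scale (116.2, 26.15 and 102.7 CPM), and the Malat1 libraries of KO palmitate 24 h spanned 1.20 (6976, 3440 and 7902 CPM). The group means of neighbouring rank mostly lay closer together than these spreads.

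At Control 0 h, before any treatment, Malat1 and Neat1 were higher in the libraries labelled KO, and no other member passed the test. Malat1 was at 3697, 4830 and 3475 CPM in the WT libraries and at 7224, 7411 and 7307 CPM in the KO libraries. All 3 KO libraries lay above all 3 WT libraries and close to each other. The WT mean was 4000 ± 726.8 and the KO mean 7314 ± 93.5 CPM (SD, n = 3 libraries), which is a difference of 0.87 ± 0.22 (SE) on the log2 scale, or 1.83-fold, with an adjusted p of 0.00612 by edgeR's quasi-likelihood test with Benjamini-Hochberg adjustment. The call was kept on leaving out any of the 42 libraries (0.78 to 1.03). Neat1 was at 70.21, 59.99 and 66.28 CPM in WT and at 136.2, 190.1 and 116.4 CPM in KO. The groups again did not overlap, but here the KO libraries were the ones spread out. Neat1 differed by 1.18 ± 0.40 on the log2 scale (2.26-fold, adjusted p = 0.0458), and leaving out any 1 of these 6 libraries ended the call (0.96 to 1.33, adjusted p = 0.0565 to 0.161), as did DESeq2 (adjusted p = 0.115).

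These 2 calls of 6 members, both upward, stood beside 12.5% of all tested genes called at Control 0 h, 6.40% higher and 6.06% lower, and the median log2 fold change was 0.62 for the members and 0.00 for all genes. With library totals in place of TMM the split over all genes was 1195 higher and 358 lower, against 744 and 704, and the log2 fold change of Malat1 was 0.94. Snhg12, at 1.81, 1.74 and 2.51 CPM in WT and 4.71, 3.94 and 3.78 CPM in KO, did not overlap either but rested on 10 to 24 counts per library (log2 fold change 1.01, adjusted p = 0.0844). Gas5 (−0.22, adjusted p = 0.294), Mir22hg (0.37, 0.371) and Snhg15 (−0.42, 0.578) were not called. Gas5 went the other way without overlap, at 33.63 to 37.84 CPM in WT and 28.6 to 33.47 CPM in KO. In all, 4 of the 6 members did not overlap here. The share of all genes without overlap was not counted, so a lack of overlap is a description here and below. Other measures moved with the label at 0 h. The 8 fibroblast markers (Col1a1, Col1a2, Col3a1, Dcn, Lum, Pdgfra, Pdgfrb and Thy1) summed to 0.883 to 1.67 CPM in WT and 44.4 to 71.4 CPM in KO. Of these 8, 4 had enough counts to be tested, and 3 were called higher in KO. Dcn, Lum, Pdgfra and Thy1 had at most 9 counts in any library, so they add little to the sum. The 10 granulocyte precursor markers summed to 49.6 to 60.7 and 82.9 to 90.5 CPM and the macrophage markers to 14800 to 15300 and 10600 to 14400 CPM, and mitochondrial genes took 9.91% to 10.0% and 8.26% to 9.05% of counts. Of the 8 macrophage markers 2 were called higher and 4 lower in KO (median −0.06). Lyz2, the most counted of them and the gene that carries Cre, differed by −0.51, so their sum leans on the altered gene. Of a list of 10 LPS markers, genes that respond to LPS, 3 were called higher in KO and 0 lower (median 0.26). The part of these measures in the result was not tested.

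In the other 6 conditions none of the 36 tests of members between labels was called. Few genes of any kind were called there. In Control the share of all genes called was 0.490% at 2 h and 0.120% at 24 h, with LPS it was 0.465% and 0.146%, and with palmitate 0.146% and 0.0688%. At Control 2 h Malat1 stood the other way round, at 4687, 5806 and 4701 CPM in KO and 7256, 6531 and 6455 CPM in WT. Those groups did not overlap, and the log2 fold change was −0.41 ± 0.22 (adjusted p = 0.547, and 5.94e-05 with a fit of only these 6 libraries). Neat1 was at 169.2, 257.0 and 199.3 CPM in KO and 145.8, 93.31 and 62.72 CPM in WT after palmitate for 2 h, also without overlap (1.05 ± 0.38, adjusted p = 0.351, and 0.000177 with a fit of only these 6 libraries). At palmitate 24 h the difference of Neat1 was 0.87 ± 0.39 (adjusted p = 0.608) and that of Malat1 0.44 ± 0.22 (0.649).

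The change of Malat1 from 0 h to 2 h in Control differed between the labels. The contrast of KO with WT in that change was −1.28 ± 0.31 on the log2 scale (adjusted p = 0.00911), the only call among 12 such tests of members, with 4.77% of all genes called at 2 h and 1.83% at 24 h, and it was kept on leaving out any 1 library. This contrast was added after the values had been seen. It is the same as the difference of KO from WT at Control 2 h (−0.41, not called) less that at Control 0 h (0.87). The contrast thus contains the call at 0 h and does not support it. At 24 h the value for Malat1 was −0.71 ± 0.31 (adjusted p = 0.282) and was called without the third KO Control 24 h library, whose level of 8951 CPM was the highest of the series (−1.13, adjusted p = 0.0356). For Neat1 the values were −0.86 (2 h, adjusted p = 0.439) and −0.79 (24 h, 0.58).

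Time in Control medium was the comparison with the most member calls, 6 of 24. The 10 LPS markers moved in Control too, with 6 called higher at 2 h in WT (median 2.15) and 4 in KO (1.52). That stood beside 14.3% and 12.1% of all genes called. At 24 h 2 were higher in WT, and 1 was higher and 1 lower in KO. Their part in the results of members was not tested. The comparison of KO with WT at 0 h and both WT time comparisons share the 3 WT Control 0 h libraries, so their values stand side by side and do not support each other. Mir22hg rose in both genotypes. In WT it went from 8.87, 8.84 and 4.90 CPM at 0 h to 23.42, 20.02 and 17.48 CPM at 2 h and 18.81, 18.51 and 19.09 CPM at 24 h. Every later library lay far above every library of 0 h. The log2 fold changes were 1.45 ± 0.23 at 2 h (2.72-fold, adjusted p = 2.55e-06) and 1.34 ± 0.23 at 24 h (2.54-fold, adjusted p = 2.81e-05). In KO it went from 14.33, 9.42 and 5.22 CPM to 18.46, 19.34 and 14.42 CPM at 2 h and 18.37, 17.86 and 21.52 CPM at 24 h. The groups did not overlap, but the first KO library at 0 h lay just under the lowest at 2 h.

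The rise of Mir22hg in KO was 0.86 ± 0.23 at 2 h (adjusted p = 0.00644) and 1.02 ± 0.23 at 24 h (adjusted p = 0.00141). Both calls were lost without the third KO Control 0 h library, at 0.56 (adjusted p = 0.134) and 0.72 (adjusted p = 0.0507). The difference between the labels in this rise was not called (−0.59 ± 0.32 at 2 h, adjusted p = 0.338). Tlcd2, the gene that overlaps it, changed by 0.16 (adjusted p = 0.818) at 2 h and −0.11 (0.899) at 24 h in WT and by −0.66 (0.274) and −0.32 (0.692) in KO. Granulocyte precursor markers summed to 82.9 to 90.5 CPM in KO at 0 h, 72.1 to 141 CPM at 2 h and 146 to 230 CPM at 24 h, with 5 of the 6 tested called higher at 24 h, and their part in the result was not tested.

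Malat1 rose in WT from the levels given above to 7256, 6531 and 6455 CPM at 2 h, with no overlap (0.75 ± 0.22, 1.69-fold, adjusted p = 0.014). Leaving out the first or the third WT Control 0 h library, or the first of WT Control 2 h, ended that call (0.66 to 0.71). At 24 h it stood at 5501, 4726 and 5891 CPM (0.43, adjusted p = 0.233), overlapping 0 h. In KO it went the other way without passing the test, by −0.53 at 2 h (adjusted p = 0.119, and 4.6e-06 with only these 6 libraries) and −0.28 at 24 h (0.535). Neat1 in WT stood at 158.3, 153.5 and 118.4 CPM at 2 h and 113.7, 154.6 and 138.7 CPM at 24 h, in each case above all libraries of 0 h and just short of the threshold (1.13, adjusted p = 0.0507, and 1.06, 0.0799). Fibroblast markers summed to 2.5 to 59.6 CPM in WT Control 2 h and 2.92 to 49 CPM in WT Control 24 h, against 0.883 to 1.67 CPM at 0 h, and their part was not tested.

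Gas5 was called lower in WT after 24 h and in none of the other 3 time comparisons. In WT it went from 34.74, 33.63 and 37.84 CPM at 0 h to 21.33, 25.71 and 27.54 CPM at 24 h, with no overlap. Its log2 fold change was −0.49 ± 0.13 (0.711-fold, adjusted p = 0.00748). It was no longer called without the first WT Control 24 h library (−0.40, adjusted p = 0.0678) or the third WT Control 0 h library (−0.44, 0.0502). In WT at 2 h the change was −0.06 (adjusted p = 0.794). In KO Gas5 stood at 29.44, 28.6 and 33.47 CPM at 0 h and, without overlap, at 36.01, 39.74 and 37.32 CPM at 2 h (0.31 ± 0.13, adjusted p = 0.124), and the change at 24 h was −0.11 (0.727). Zbtb37, on the other strand, changed by −0.48 in the same WT comparison (adjusted p = 0.321). Snhg12 reached 4.07, 2.98 and 5.78 CPM in WT at 2 h, from 10 to 19 counts per library at 0 h to 18 to 39 counts (1.07 ± 0.39, adjusted p = 0.0559), and passed with DESeq2 (adjusted p = 0.0458). Beside these counts, 14.3% and 12.1% of all genes were called in WT at 2 h and 24 h, and 12.1% and 8.17% in KO. Of all genes, 8.41% were higher in WT at 2 h, and 5.72% were higher and 6.42% lower in WT at 24 h. The calls of members were 5 upward and 1 downward, and 4 of the 6 calls of members were of Mir22hg.

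LPS, the bacterial product that activates macrophages through TLR4, moved 3 of the 6 members, in 4 of 24 tests. All genes were called far more often, in 23.1% (WT 2 h), 39.5% (WT 24 h), 23.9% (KO 2 h) and 40.9% (KO 24 h), so the members' share was below the background. The response itself was present, since all 10 listed LPS markers were higher at 2 h in both genotypes, with Tnf up by 4.77 and 4.65 and Cxcl10 by 6.90 and 6.76 on the log2 scale in WT and KO.

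Mir22hg was lower after 24 h of LPS in both genotypes. In WT it was at 11.3, 10.09 and 7.66 CPM, against 18.81, 18.51 and 19.09 CPM in Control 24 h. In KO it was at 7.60, 10.46 and 8.79 CPM, against 18.37, 17.86 and 21.52 CPM. In neither genotype did a treated library reach a Control 24 h library. The log2 fold changes were −0.96 ± 0.22 (0.513-fold, adjusted p = 0.00039) and −1.12 ± 0.22 (0.459-fold, adjusted p = 4.24e-05), and neither call was lost on leaving out any 1 library. At 2 h it leaned the other way, at 26.47, 24.25 and 35.1 CPM with LPS against 23.42, 20.02 and 17.48 CPM in WT, without overlap (0.51 ± 0.20, adjusted p = 0.0579), and at 18.6, 22.89 and 29.19 CPM against 18.46, 19.34 and 14.42 CPM in KO, with overlap (0.46 ± 0.21, 0.108). The LPS effect at 24 h less that at 2 h was −1.48 ± 0.30 in WT (adjusted p = 8.97e-05) and −1.59 ± 0.31 in KO (adjusted p = 4.04e-05). Mean levels of Mir22hg with LPS at 24 h, 9.682 CPM in WT and 8.949 CPM in KO, were near those of Control 0 h (7.534 and 9.655 CPM). Control 24 h had the higher means, 18.8 and 19.25 CPM, and LPS 24 h was not tested against Control 0 h. Tlcd2 changed by −0.58 (adjusted p = 0.253) in WT and −0.80 (0.0943) in KO with LPS at 24 h, the same sign as Mir22hg. Other measures moved with LPS at 24 h. Of the 6 granulocyte precursor markers tested 1 was higher and 3 were lower in WT (median −1.07) and 1 higher and 4 lower in KO (median −1.39). Lcn2, which is also a gene induced by LPS, was the higher one (5.88 in WT and 4.29 in KO on the log2 scale), and the summed level of the list was 62.4 to 68.7 CPM in Control and 346 to 439 CPM with LPS in WT, and 146 to 230 and 331 to 401 CPM in KO. Endothelial markers summed to 12.1 to 12.3 CPM in Control and 27.2 to 31.6 CPM with LPS in WT, and to 8.84 to 17.8 and 27.8 to 29.8 CPM in KO, with 2 of 3 tested called higher in each. Mitochondrial genes took 8.55% to 8.77% of counts in Control and 5.67% to 6.89% with LPS in WT, and 9.09% to 9.34% and 5.60% to 6.77% in KO. The part of these in the result was not tested.

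Gas5 showed the opposite order in time. After 2 h of LPS it was at 25.43, 27.55 and 27.9 CPM in KO, against 36.01, 39.74 and 37.32 CPM in Control, with a wide gap between the groups (−0.47 ± 0.14, 0.72-fold, adjusted p = 0.00658). In WT it was at 30.77, 23.84 and 29.34 CPM against 35.23, 31.27 and 35.27 CPM, also without overlap but closer (−0.29 ± 0.14, adjusted p = 0.124). The difference between genotypes in this effect was −0.19 ± 0.19 (adjusted p = 0.884). At 24 h Gas5 was at 29.61, 29.13 and 32.3 CPM with LPS and 21.33, 25.71 and 27.54 CPM in Control of WT (0.27, adjusted p = 0.109), and differed by 0.04 in KO (0.85). The effect at 24 h less that at 2 h was 0.56 ± 0.19 in WT (adjusted p = 0.0196) and 0.51 ± 0.19 in KO (adjusted p = 0.0316). From 2 h to 24 h the Control mean of Gas5 went from 33.92 to 24.86 CPM in WT and from 37.69 to 28.32 CPM in KO. With LPS it went from 27.98 to 30.35 CPM and from 26.96 to 29.07 CPM, so the larger move was in Control. Zbtb37, on the other strand, fell by 1.26 on the log2 scale in WT at 2 h (adjusted p = 0.00159) and changed by −0.80 in KO (0.0545). Whether its reads entered the Gas5 count is not known.

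That change of the LPS effect with time gave 4 calls in 12 tests, Mir22hg and Gas5 in each genotype, beside 32.6% of all genes in WT and 33.4% in KO. For Gas5 the WT call was lost without the first WT Control 24 h library (0.49, adjusted p = 0.0555) or the second WT LPS 2 h library (0.46, 0.0782), and the KO call without any 1 of 4 libraries, the first of KO LPS 2 h, the first and the third of KO Control 24 h and the second of KO Control 2 h (0.44 to 0.50). Malat1, Neat1, Snhg12 and Snhg15 had no called change of this kind.

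Neat1 was the third member called with LPS, and its call rests on 1 library. In KO at 24 h it was at 81.56, 96.73 and 75.26 CPM with LPS and at 88.4, 127.2 and 308.8 CPM in Control. The groups overlap, and 1 Control library stands far above the rest. The log2 fold change was −1.09 ± 0.39 (adjusted p = 0.0212), and without that Control library, the third of its group, it was −0.37 (adjusted p = 0.542). It was also lost without the first (−1.06, adjusted p = 0.056) or the third (−1.01, 0.0736) KO LPS 24 h library and with DESeq2 (−1.06, 0.086). The other values had the same sign, at −0.74 in WT at 24 h (adjusted p = 0.141), −0.67 in WT at 2 h (0.26) and −1.04 in KO at 2 h (0.0577). Malat1, the more abundant neighbour, changed by −0.35 to 0.05 with LPS and was called in none of the 4 comparisons. Snhg15 had 0, 9 and 5 counts in WT after 2 h of LPS against 9, 11 and 21 in Control (−1.09 ± 0.49, adjusted p = 0.108), at the edge of what this depth can show.

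With palmitate, the saturated fatty acid used as the metabolic stress, no member was called. None of 24 tests was called by edgeR or by DESeq2 and none had an unadjusted p under 0.05, beside 0.275% (WT 2 h), 0.852% (WT 24 h), 0.112% (KO 2 h) and 0.877% (KO 24 h) of all genes called. The log2 fold changes ran from −0.64 to 0.44. Malat1 in WT at 2 h was at 6253, 4647 and 4538 CPM with palmitate, all below Control (−0.39 ± 0.22, adjusted p = 0.713, and 0.0016 with a fit of only these 6 libraries), and Neat1 in WT at 24 h was at 44.97, 147.5 and 71.27 CPM, spanning Control (−0.64 ± 0.40, 0.671). The genotype by treatment terms were called in 0 of 24 tests by edgeR and by DESeq2, with 0 at an unadjusted p under 0.05. Of all genes, 0% were called for LPS at 2 h, 0.00860% for LPS at 24 h, and 0% for palmitate at 2 and at 24 h.

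**Figure D2:**
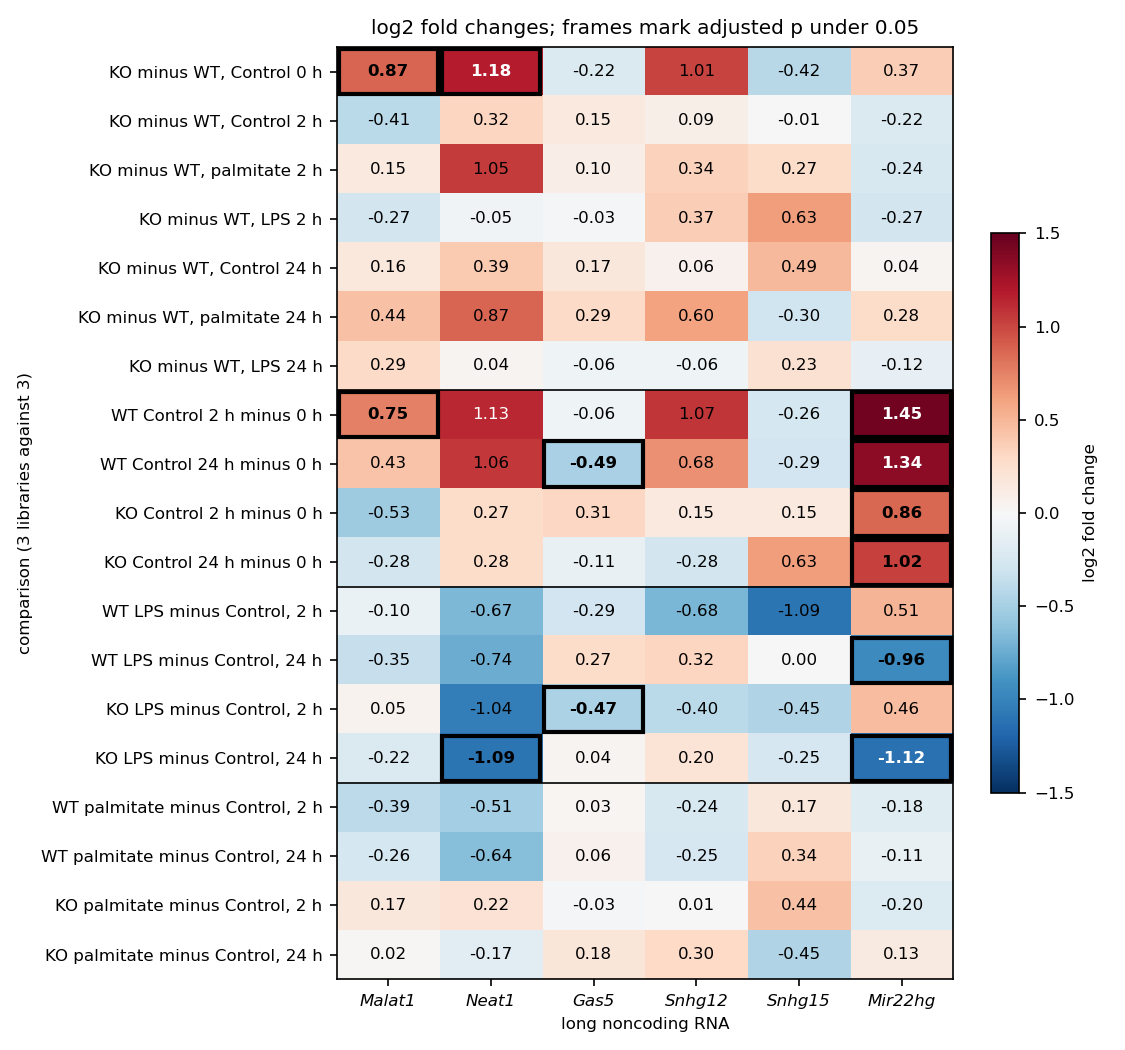
Log2 fold change of the 6 tested members (columns) in 19 comparisons (rows), by colour and printed value; frames mark an adjusted p under 0.05 by edgeR. Mir22hg holds 6 of the 12 frames, Malat1 2, Neat1 2 and Gas5 2, and no palmitate row is framed.

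The proteins and messages that work with these RNAs were followed as lists, each count being of genes called at an adjusted p under 0.05. Paraspeckle proteins (12 tested), which bind Neat1, held 2 higher in KO at Control 0 h (Ewsr1 0.22 and Cpsf6 0.32 on the log2 scale). Of all genes 12.5% were called there, and 6.40% of all genes were called higher. After 2 h of LPS 4 were higher in WT and 3 in KO, led by Sfpq, an essential paraspeckle protein (0.61 and 0.69). That stood beside 23.1% and 23.9% of all genes called, and so few calls are no result about the list. At 24 h Sfpq was lower (−0.72 in WT and −0.56 in KO), as was Pspc1 (−0.44 and −0.57), while Nono, the partner of Sfpq, was higher (0.33 and 0.24). In counts that is 2 higher and 3 lower in WT and 1 higher and 4 lower in KO, a share near the 39.5% and 40.9% of all genes called, so it is no result about the list.

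Nuclear speckle and splicing factors (12 tested), the company of Malat1, held 4 higher in KO at Control 0 h, beside 6.40% higher over all genes. Among them were Srsf5 (0.53), Srsf11 (0.33) and Srsf2 (0.31), and the list median was 0.16 against 0.00 for all genes. After 2 h of LPS 9 were higher in WT, with Srsf5 at 0.44, U2af2 at 0.35 and Srrm2 at 0.31, and 5 in KO. Of all genes 23.1% and 23.9% were called in these comparisons, and with library totals the split over all genes turned from mostly higher to mostly lower (1045 higher and 2476 lower in WT, 1152 and 2828 in KO). At 24 h it was 3 higher and 2 lower in WT and 2 and 2 in KO, beside 39.5% and 40.9% of all genes called. Nonsense-mediated decay factors (14 tested), which act on spliced host transcripts, held 4 higher in KO at 0 h, again beside 6.40% higher over all genes. Among them were Upf3b (0.78), Smg5 (0.50) and the kinase Smg1 (0.45). With LPS at 24 h 6 were higher and 1 lower in WT (Smg9 0.88, Smg5 0.60 and the helicase Upf1 0.54 higher, Smg6 −0.44) and 8 higher in KO (Smg9 1.14, Upf1 0.66), beside the 39.5% and 40.9% of all genes called.

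Coding genes listed for oligopyrimidine tracts (24 tested), most of them for ribosomal proteins and translation factors, are known for the same start signal as Gas5. The scan above found a tract at 6 of the 16 with a listed start. In WT 21 of them were lower in Control at 24 h than at 0 h, beside 6.42% lower over all genes. The list median was −0.31 against 0.00 for all genes, with Tpt1 at −0.46, Eef1b2 at −0.43 and Eef1a1 at −0.35. Gas5 changed by −0.49 in that comparison, and Snhg12, where the scan also found a tract, by 0.68 (adjusted p = 0.32 by edgeR). With library totals the split over all genes there was 1343 higher and 378 lower, against 665 and 746. In KO the list held 1 higher and 7 lower at 24 h, beside 8.17% of all genes called. With LPS at 2 h, when Gas5 fell in KO, 1 of 24 was higher in WT and 0 in KO were called, beside 23.1% and 23.9% of all genes. At 24 h 14 were lower and 1 higher in WT and 15 lower in KO (Nap1l1 −0.79 in WT), beside 39.5% and 40.9% of all genes called. At Control 0 h 8 were lower in KO (median −0.16), beside 6.06% lower over all genes. Among them were Nap1l1 (−0.29), Npm1 (−0.26) and Pabpc1 (−0.22).

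MicroRNA processing genes (13 tested), which turn a host transcript into a microRNA, held 2 higher and 6 lower with LPS at 24 h in WT and 1 higher and 6 lower in KO, again beside 39.5% and 40.9% of all genes called. Ago4, an Argonaute protein, fell by 1.31 and 1.59 on the log2 scale in WT and KO, and Dgcr8, the partner of Drosha, by 0.54 in WT. Of other snoRNA hosts 5 were tested, and Zfas1 was the one called with LPS at 24 h, higher by 1.69 in WT (adjusted p = 4.33e-07) and 1.09 in KO (0.000285). Of 3 other microRNA hosts tested, Mir99ahg was lower with LPS in WT at 24 h (−1.85, adjusted p = 0.0124). Among 4 other long noncoding RNAs, Lncpint was lower after 2 h of LPS in WT (−1.55, adjusted p = 0.00376) and Rmrp was lower in KO at Control 0 h (−0.61, 0.0241). With palmitate no gene of these lists was called, and of the 10 LPS markers only Acod1, in KO at 24 h (0.72, adjusted p = 0.0167).

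Within groups, where label, treatment and time are equal, Malat1 and Neat1 rose and fell together from library to library. The deviation of each library from its group mean of log2 CPM correlated between them with Pearson's r = 0.841 (adjusted p = 0.00038) and Spearman's rho = 0.764 (adjusted p = 0.00038) over 42 libraries, by permutation within groups with adjustment over 19 relations (raw p = 2e-05 for both). Without the 2 libraries whose Malat1 lay farthest from the median, r was 0.804. Examples are WT LPS 24 h, where the second library was the lowest for both (2867 and 26.15 CPM), KO Control 24 h, where the third was the highest for both (8951 and 308.8 CPM), and KO palmitate 24 h, where the second was the lowest for both (3440 and 67.91 CPM). Set among 7513 autosomal genes outside the members whose mean reached 10 CPM, Neat1 ranked 7 by r with Malat1, and the 5th and 95th percentiles of r over these genes were −0.434 and 0.435.

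**Figure D3:**
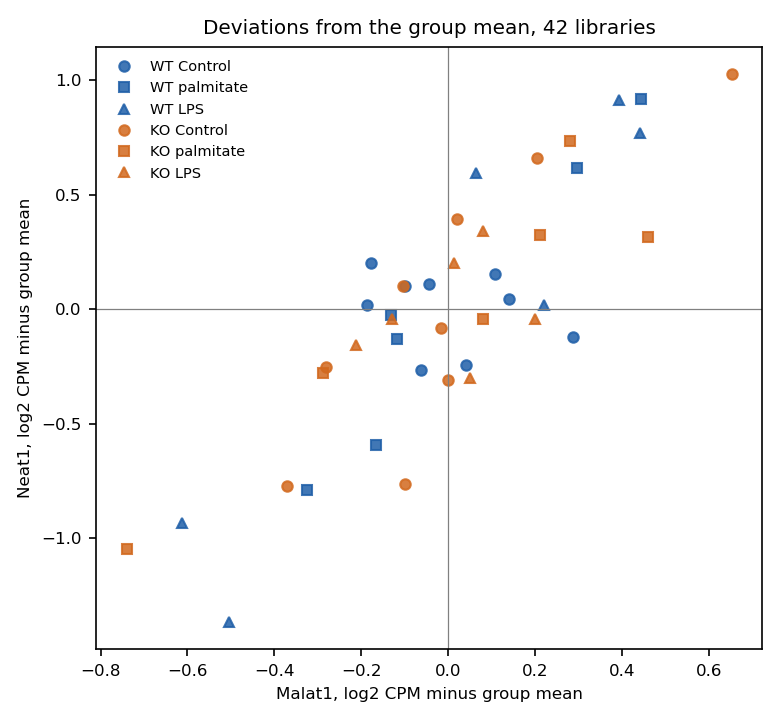
Deviation of Neat1 (vertical) against that of Malat1 (horizontal) from the group mean, in log2 CPM, 1 point per library (42 in all; blue labelled WT, orange labelled KO). The points lie along a rising line (r = 0.841), in both genotypes, with the deviations of Neat1 reaching from −1.37 to 1.03 and those of Malat1 from −0.74 to 0.65.

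Mir22hg took part in this more weakly, with r = 0.462 to Malat1 (raw p = 0.0014, adjusted p = 0.0133, rho = 0.568, permutation adjusted p = 0.00557, r = 0.412 without 2 libraries) and r = 0.449 to Neat1 (raw p = 0.0045, adjusted p = 0.0288, rho = 0.599, adjusted p = 0.00557, r = 0.473 without 2). Gas5 had r = 0.49 to Malat1 (rho = 0.444, permutation adjusted p = 0.196 and 0.109) and the snoRNA hosts Snhg12 and Snhg15 0.348 and −0.164, none past the test. Malat1 had r = 0.132 with the total count (adjusted p = 0.73) and 0.413 with the share of mitochondrial counts (0.205), and Neat1 0.129 and 0.152, also by permutation. Points of a group share their mean, so the 3 deviations of a group are not free of each other.

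The genes that deviated with Malat1 from library to library were then followed across the comparisons. The 50 genes of highest r outside the members (0.679 to 0.894) included Stard9 (0.894), Zfc3h1 (0.873), Nktr (0.867), Safb2 (0.861), Ccnl1 (0.802), Pnisr (0.8), the kinase genes Clk1 (0.774) and Clk4 (0.739), and Luc7l3 (0.731). Clk1, Clk4 and Ccnl1 are known from splicing, and no theme was tested over the 50. In KO at Control 0 h 31 of the 50 were higher and none lower (median 0.47), beside 6.40% higher over all genes. Ccnl1 differed by 0.95 (adjusted p = 0.000203), Stard9 by 0.65 (0.00133), Nktr by 0.65 (0.00401) and Safb2 by 0.52 (0.00074), and Pnisr by 0.54 did not pass (0.055). In WT 24 were higher at 2 h than at 0 h (median 0.42, beside 8.41% over all genes) and 22 at 24 h (median 0.45, beside 5.72%). In the contrast of labels over 2 h 11 were lower (median −0.49, beside 2.55% lower over all genes). With palmitate in WT at 24 h none was called (median −0.19). With LPS in WT at 24 h 7 were higher and 7 lower, beside 39.5% of all genes called.

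The 50 genes of lowest r outside the members (−0.758 to −0.614) included Akr1a1 (−0.758), Gnai2 (−0.751), the ribosomal protein gene Rpl13a (−0.722), Gapdh (−0.704), the elongation factor Eef1a1 (−0.697) and Actb (−0.687). At Control 0 h 17 of them were lower in KO and none higher (median −0.13, beside 6.06% lower over all genes), among them Actb (−0.44, adjusted p = 6.09e-07) and Eef1a1 (−0.22, 0.00919). In WT at 24 h 26 were lower and 1 higher than at 0 h (median −0.17, beside 6.42% lower over all genes). Of the 24 coding genes with oligopyrimidine tracts, 23 had a negative r to Malat1 (median −0.452), while 10 of 12 nuclear speckle factors had a positive one (median 0.338), beside a median of −0.0335 over the 7513 genes. Both sets of 50 were drawn from the same libraries, after the values had been seen, and share the library deviations of Malat1, so these counts describe them and carry no test.

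**Figure D4:**
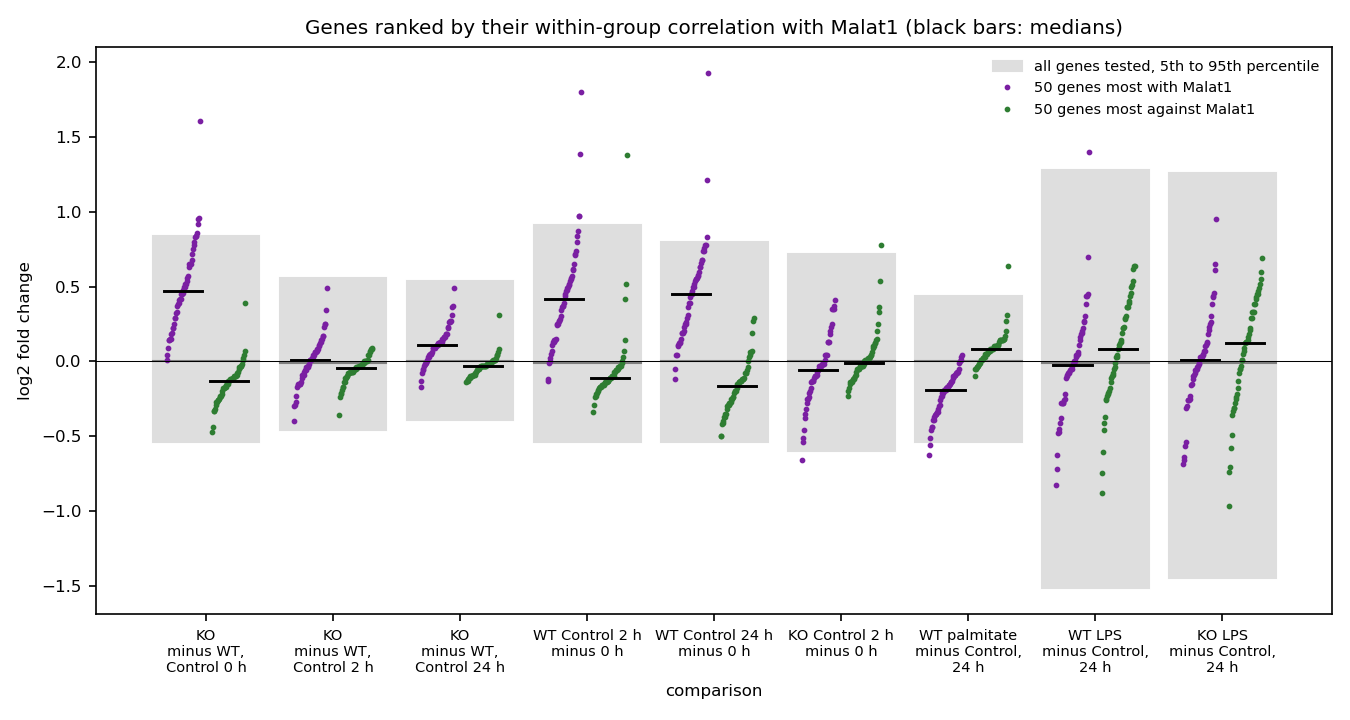
Log2 fold change of the 50 genes that deviated most with Malat1 and the 50 most against it in 9 comparisons; points are genes, black bars medians, and grey bands the 5th to 95th percentile of all tested genes. The with set lies above its counterpart in KO against WT at Control 0 h (medians 0.47 and −0.13) and in WT time at 24 h (0.45 and −0.17), and near 0 in KO against WT at Control 2 h (0.01 and −0.04).

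Over the 14 group means, the tested genes of at least 10 CPM most like each member were, by Pearson's r, Eaf1 (0.965) and Kdm5a (0.914) for Mir22hg, Adamts10 (0.925) and Gabpb2 (0.912) for Neat1, and BC005561 (0.894) and Zzef1 (0.832) for Malat1. For Gas5 they were 2410006H16Rik (0.791) and Cox7a2l (0.787), for Snhg12 Rsrp1 (0.801) and Trim3 (0.776), and for Snhg15 Zfp316 (0.894) and Tmem129 (0.892). These are descriptions over 14 points that share libraries, and for Snhg12 and Snhg15 the group means rest on few counts.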

How the data were processed

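RNA-seq was performed on BMDM in 14 groups of 3 libraries. RNA was made into stranded, ribodepleted libraries with the SMARTer pico kit and sequenced in paired ends. Per the submitters' processing notes fastp 0.19.11 and STAR 2.7.3a were used, and the study's methods name mm10. The authors deposited raw counts per gene, not normalised. The annotation release and the strand setting of the counting are not given in the sources used here. The study tested genotypes with DESeq2. Columns name a group and no replicate, so libraries were numbered in column order, as names that pair nothing. Whether libraries of a group came from separate mice is not stated, and p-values then measure only the spread between these libraries, which may be technical. Over 42 pairs within groups, no pair of libraries agreed within sampling noise.

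Of 37310 rows, 32620 were matched to a symbol, 0 lacked an identifier, and 0 columns belonged to another series. The counts were tested with edgeR 4.0.16 (R 4.3.3), using filterByExpr (11624 genes, 99.9% of counts), TMM scaling, 1 quasi-likelihood fit over all 42 libraries, contrasts of group means, and Benjamini-Hochberg adjustment over all tested genes. Calls were made where the adjusted p was under 0.05. With 3 libraries against 3 an exact permutation test cannot go below 0.10, so calls rest on this model. Log2 CPM used a prior count of 2. Correlations of deviations used 1e+05 permutations within groups (two-sided; smallest possible p 1e-05). Depth was 2848793 to 7743442 counts, and errors given as SD or SE are between libraries. Positions are from GENCODE on GRCm38 and sequences from RefSeq. Alternatives were RLE scaling, library totals, no filter, fits of only the libraries compared, DESeq2 1.42.0, the study's threshold, leaving out each library, and leaving out the 4 libraries with fewer than 4000000 counts, the last chosen after seeing the data. The scripts were tested on simulated data.

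Every member was named, with the 2 genes of at least 10 CPM most like it over group means, and up to 3 genes per direction of each list, by smallest adjusted p. The members and lists were chosen with earlier results of these data known. The genotype by Control time contrasts and both sets of 50 genes were chosen after values had been seen.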

Additional observations from a re-analysis of the deposited data

Results flagged for a closer look

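Effects under the same contrast differed between groups, by a test of the difference itself, for 3 members. The LPS effect at 24 h less that at 2 h was −1.48 in WT and −1.59 in KO on the log2 scale for Mir22hg (adjusted p = 8.97e-05 and 4.04e-05 by edgeR), and 0.56 in WT and 0.51 in KO for Gas5 (adjusted p = 0.0196 and 0.0316). For Malat1, the change from Control 0 h to Control 2 h in KO less that in WT was −1.28 on the log2 scale (adjusted p = 0.00911 by edgeR). That contrast was added after the values had been seen, and it contains the difference of KO from WT at Control 0 h. Single outlying libraries were not tested for, since each group held 3 libraries.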

How the results depend on the processing

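Calls of members at an adjusted p under 0.05 were 4 of 24 for LPS, 0 of 24 for palmitate, 2 of 42 for KO against WT, 0 of 24 for genotype by treatment, 6 of 24 for Control time, 4 of 12 for the LPS effect at 24 h against 2 h and 1 of 12 for genotype by Control time. With library totals LPS had 7 and Control time 9. With no filter on low counts (25164 genes) LPS had 10, palmitate 4, KO against WT 10, genotype by treatment 2, Control time 13 and genotype by Control time 4. Over all genes the calls without a filter went from 57 to 176 for KO against WT at Control 2 h. They went from 1448 to 1323 at Control 0 h, and from 4594 to 4217 for LPS in WT at 24 h. In that fit the quasi-dispersion of Malat1 was 0.582 against 9.57 and that of Neat1 0.878 against 21, because the prior degrees of freedom went from 19.7 to infinite and each gene then took the value of the common trend. With only the libraries compared LPS had 8, palmitate 1, KO against WT 4, Control time 11 and genotype by Control time 3, and the cause was not tested. Calls over all genes moved too in those fits. They went from 57 to 235 for KO against WT at Control 2 h and from 1411 to 1870 for WT Control at 24 h. For KO against WT at Control 0 h they went from 1448 to 1249, and for LPS in KO at 2 h from 2776 to 2101. DESeq2 gave KO against WT 1, and the study's threshold (unadjusted p under 0.05 and a log2 fold change over 1 in size) gave 3. Leaving out each library in turn gave 3 to 7 for LPS, 0 to 0 for palmitate, 1 to 2 for KO against WT, 0 to 0 for genotype by treatment, 4 to 8 for Control time (4 without the third WT Control 0 h library), 3 to 5 for the LPS effect over time and 1 to 2 for genotype by Control time. Of all 162 tests of members, 48 changed sign on leaving out some 1 library; none of these was called with all libraries, and none was over 0.39 in size. Among the 52 results called in at least 1 fit of another kind, 6 were such. For Neat1, KO against WT ran from −0.33 to 0.68 at Control 24 h and from −0.06 to 0.62 at Control 2 h, and Control time in KO from −0.44 to 0.57 at 24 h and from −0.10 to 0.57 at 2 h. For Malat1, LPS in KO at 24 h ran from −0.40 to 0.18, and the LPS effect over time in KO from −0.44 to 0.15.

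Beside the calls of Neat1 that DESeq2 did not make, the calls lost with another fit were those of Gas5. Without the 4 libraries of fewer than 4000000 counts its change in WT Control to 24 h was −0.40 (adjusted p = 0.0649) and its LPS effect over time in KO 0.47 (0.0847), which with no filter was 0.53 (0.0545). The log2 fold changes of Malat1 at Control 0 h (0.87 to 0.94) and of Mir22hg with LPS at 24 h (−1.02 to −0.96 in WT and −1.19 to −1.12 in KO) were called under all 6 alternative fits. With library totals the median of all genes shifted by up to 0.18 (LPS in KO at 2 h). The split of higher to lower calls over all genes then went from 1711 and 1065 to 1152 and 2828 for LPS in KO at 2 h, from 1628 and 1058 to 1045 and 2476 in WT, and from 665 and 746 to 1343 and 378 for WT Control at 24 h, while Gas5 was −0.65 in the first of these and −0.39 in the last. The correlation of Malat1 with Neat1 within groups was 0.839 with RLE scaling and 0.845 without the 4 small libraries. No paired analysis was possible because the columns of the count table carry no replicate numbers. Depth limits Snhg12 and Snhg15, with 39 counts at most in a library, and Meg3.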
